A study of Solanum lycopersicum with 8 samples.

Results

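Leaves of tomato (Solanum lycopersicum) treated with tunicamycin were compared with control leaves at 2 h, the earlier of the 2 times at which the study sampled ER stress (stress of the endoplasmic reticulum). The tunicamycin 2 h group and the control 2 h group held 2 libraries each, labelled as biological replicates, and made up 4 of the 8 libraries sequenced. The other 4 were tunicamycin and control leaves at 6 h, 2 libraries each. The labels give no cultivar, plant age, dose, solvent or way of applying the drug, and the control leaves are named as control only. With 2 libraries in a group, each p-value of the main edgeR fit rests on a spread that was estimated from all 8 libraries together.

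Tunicamycin is an antibiotic that blocks the first step of N-glycan assembly on the lipid carrier dolichol, in the ER membrane. Secreted and membrane proteins that lack their glycans fold poorly, and plant cells are known to answer through the unfolded protein response, in which the sensor IRE1 splices the messenger RNA of the transcription factor bZIP60 and the membrane factors bZIP17 and bZIP28 are released by proteolysis. Known targets are ER chaperones such as BiP, protein disulfide isomerases and the parts of ER-associated degradation. Jasmonates are lipid hormones of wounding and herbivore defence. They are made from linolenic acid by a lipoxygenase, allene oxide synthase, allene oxide cyclase and 12-oxophytodienoate reductase, and act by removing JAZ (TIFY) repressors from the transcription factor MYC2, which in turn switches on many jasmonate and JAZ genes.

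Totals were 44584773 and 6399672 counts in tunicamycin leaves (replicates 1 and 2), against 4689769 and 46824604 in control leaves. The deeper library was thus tunicamycin replicate 1 in one group and control replicate 2 in the other, with 6.97 and 9.98 times the counts of the other library of its group. Tunicamycin minus control is also given below within the deeper pair and within the shallower pair of libraries. All levels below are CPM, counts relative to a TMM-scaled library total, given for replicate 1 and then replicate 2, and they can be compared between libraries but not between genes, since no gene lengths were used. Summed over 19 genes of Rubisco small subunits and chlorophyll a-b binding proteins, which mark leaf mesophyll, they came to 44924 and 53496 CPM in tunicamycin leaves, against 41818 and 36618 CPM in control leaves. Pollen and anther markers summed to 470.1 and 669 CPM in tunicamycin leaves, against 668 and 843 CPM in control leaves. The fruit ripening marker that could be tested stood at 2.16 CPM or less in each library. In bulk leaves, fewer cells of a type and less RNA per cell cannot be told apart.

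Of 20282 genes tested, 12 passed at an adjusted p under 0.05 in edgeR's quasi-likelihood test (Benjamini-Hochberg), which is 0.0592% of them. Jasmonate genes made up 4 of the 11 that fell (0.0542% of all genes): aos and AOC of hormone synthesis, and the repressor genes JAZ2 and SLJAZ3. A single gene, wound-induced protein 1, rose (0.00493%). In all, 1565 genes, these 12 included, had an unadjusted p under 0.05, 912 of them lower and 653 higher in tunicamycin leaves. DESeq2 called 222 genes, 150 lower and 72 higher, and limma-voom called aos only. The median log2 fold change over all genes was 0.01, with quartiles at -0.38 and 0.39. Both tunicamycin libraries lay below both control libraries in 4157 genes (20.5%) and above both in 3775 genes (18.6%). The higher count includes genes whose nearest libraries tied at 0 counts, such as LOC101252875. Such ties were not counted and may also enter the lower count and the lists below. The nearest libraries were 2-fold or more apart in 501 genes on the lower side (2.47%) and in 376 genes on the higher side (1.85%). No gene was called when either deeper library was left out (974 genes had an unadjusted p under 0.05 without control replicate 2, and 1376 without tunicamycin replicate 1). Without tunicamycin replicate 2, 7 genes were called, 6 of them higher, and 2 were among the 12, and without control replicate 1, 5 were called, all lower and all among the 12.

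**Figure D1:**
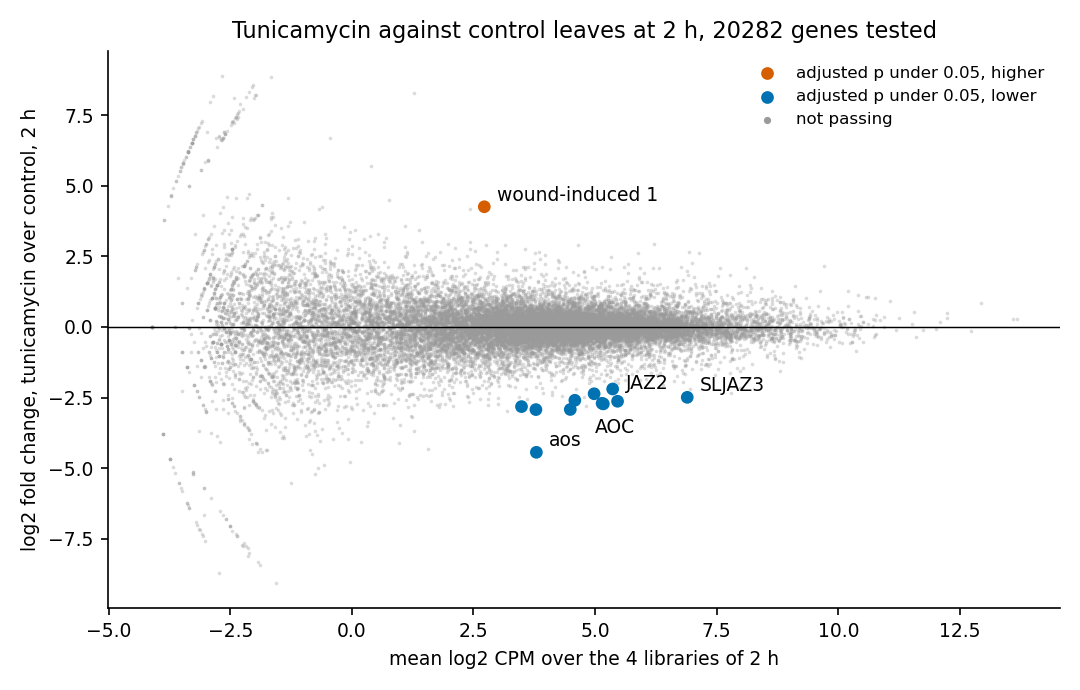
Log2 fold change of tunicamycin over control leaves at 2 h (vertical axis) against mean log2 CPM over the 4 libraries (horizontal axis), 1 point per gene, with the 12 genes of adjusted p under 0.05 in colour. The 11 genes that fell lie between -4.44 and -2.20, and the gene that rose lies at 4.26.

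The enzyme that commits lipid hydroperoxides to jasmonate changed most among the genes that passed. Allene oxide synthase (aos) had 2.15 and 4.26 CPM in tunicamycin leaves, against 50.8 and 76.1 CPM in control leaves. The nearest libraries of the 2 groups were 3.56 apart on the log2 scale, and its log2 fold change was -4.44 ± 0.45 (adjusted p = 0.00291). AOC, allene oxide cyclase, which catalyses the next step, had 14.04 and 14.05 CPM in tunicamycin leaves, against 79.9 and 105 CPM in control leaves. The groups were well apart and the 2 tunicamycin libraries nearly equal, at a log2 fold change of -2.72 ± 0.43 (adjusted p = 0.0395). A called gene later in the route was LOC101251665, described as 4-coumarate--CoA ligase-like 5, a name that in Arabidopsis belongs to a peroxisomal ligase of jasmonate synthesis (OPCL1). It had 13.05 and 15.5 CPM in tunicamycin leaves, against 51.6 and 93.9 CPM in control leaves, with no overlap and a log2 fold change of -2.37 ± 0.35 (adjusted p = 0.0395).

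The other steps of the pathway, given here because they complete it, did not pass in edgeR. The lipoxygenase gene loxD, whose enzyme supplies the 13-hydroperoxide, came closest, with 60.1 and 58.3 CPM in tunicamycin leaves, against 198 and 342 CPM in control leaves (log2 -2.19 ± 0.38, adjusted p = 0.0819). The chloroplast phospholipase LOC101244514 (A1-Ibeta2-like), of a family that can release the fatty acid, had 11.7 and 13.4 CPM in tunicamycin leaves, against 24.3 and 33.7 CPM in control leaves (log2 -1.22 ± 0.36, adjusted p = 0.33). In both genes the tunicamycin libraries lay below the controls without overlap. The reductase gene opr3 had 15.99 and 19.8 CPM in tunicamycin leaves, against 31.9 and 59.6 CPM in control leaves (log2 -1.38 ± 0.38, adjusted p = 0.292). AOS2, a second allene oxide synthase, had 13.8 and 7.24 CPM in tunicamycin leaves, against 19.4 and 27.6 CPM in control leaves (log2 -1.13 ± 0.44, adjusted p = 0.535). Both were again lower without overlap. JAR1-type synthetases join jasmonate to isoleucine, which gives the active hormone, and the gene LOC101262053 had 38.8 and 40.2 CPM in tunicamycin leaves, against 27.01 and 39.4 CPM in control leaves, levels that overlapped. One lipoxygenase of the other regiochemical class, the 9S-lipoxygenase gene LOC101263535, stood higher without overlap, at 180.1 and 87.05 CPM in tunicamycin leaves, against 52.1 and 43.2 CPM in control leaves (log2 1.49 ± 0.59, adjusted p = 0.574).

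Cytochrome P450 94B3 in Arabidopsis hydroxylates jasmonoyl-isoleucine and so lowers the active hormone. LOC101263302, described as 94B3-like, had 0.3396 and 1.28 CPM in tunicamycin leaves, against 8.64 and 16.7 CPM in control leaves. Its groups were far apart at low levels, with a log2 fold change of -4.34 ± 0.81 (adjusted p = 0.0936), above the threshold. A second 94B3-like gene, LOC101263598, had 0.226 and 0 CPM in tunicamycin leaves, against 1.35 and 8.75 CPM in control leaves, where the 0 belongs to the shallower library (log2 -4.90 ± 1.17, adjusted p = 0.215).

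On the signalling side, 2 of 15 tested genes of JAZ repressors and MYC2 passed, both lower. JAZ2 had 18.5 and 17.9 CPM in tunicamycin leaves, against 76.2 and 149 CPM in control leaves. SLJAZ3 had 46.7 and 57.04 CPM in tunicamycin leaves, against 193 and 389 CPM in control leaves. In both genes the 2 tunicamycin libraries were close to each other, and the deeper control library stood well above the shallower one. Log2 fold changes were -2.63 ± 0.38 (adjusted p = 0.0364) for JAZ2 and -2.49 ± 0.41 (adjusted p = 0.0489) for SLJAZ3. The TIFY 5A-like gene LOC101252907 had 5.15 and 2.98 CPM in tunicamycin leaves, against 31.9 and 33.2 CPM in control leaves, without overlap (log2 -2.94 ± 0.56, adjusted p = 0.109). The TIFY 10b-like gene LOC101247936 had 124 and 127 CPM in tunicamycin leaves, against 313 and 467 CPM in control leaves (log2 -1.64 ± 0.36, adjusted p = 0.185). MYC2 itself, the factor that JAZ proteins hold back, had 88.8 and 92.8 CPM in tunicamycin leaves, against 163 and 183 CPM in control leaves (log2 -0.93 ± 0.37, adjusted p = 0.553). Its tunicamycin libraries also lay below both controls, with a smaller gap than in JAZ2 and SLJAZ3. An exception was LOC100191114, also described as a JAZ protein 3, at 318 and 410.4 CPM in tunicamycin leaves, against 322 and 434 CPM in control leaves. Its groups overlapped.

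Counted over the list, 11 of the 15 JAZ and MYC genes (73.3%) had both tunicamycin libraries below both controls and 0 had both above, beside 20.5% and 18.6% of all genes tested. The list's median log2 fold change was -0.93, beside 0.01 over all genes, and it was -1.04 in the deeper pair and -1.24 in the shallower pair. Of 42 tested genes of lipid release and jasmonate synthesis, 2 passed, both lower, and 16 (38.1%) lay below the controls without overlap, against 5 above (11.9%). Their median was -0.44, and 28 of 42 were below zero. Another list held 47 tested genes of wound and herbivore defence proteins (proteinase inhibitors, polyphenol oxidases and related genes), matched by description. Of these 47, 7 (14.9%) were lower and 10 (21.3%) higher without overlap, and the called gene is wound-induced protein 1. Their median was 0.55, with 30 of 47 above zero, and it was 0.83 in the deeper pair and -0.31 in the shallower pair, of opposite sign. An unadjusted p under 0.05 was found for 8 of them on the higher side and 3 on the lower. LOC101259064, polyphenol oxidase F, which browns wounded tissue, had 1.84 and 1.703 CPM in tunicamycin leaves, against 5.401 and 10.5 CPM in control leaves (log2 -2.19 ± 0.59, adjusted p = 0.273). Lemir, a miraculin of the Kunitz inhibitor family, had 59.03 and 18.3 CPM in tunicamycin leaves, against 6.48 and 5.997 CPM in control leaves (log2 2.66 ± 0.69, adjusted p = 0.273). Neither gene passed, and they lay on opposite sides without overlap.

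**Figure D2:**
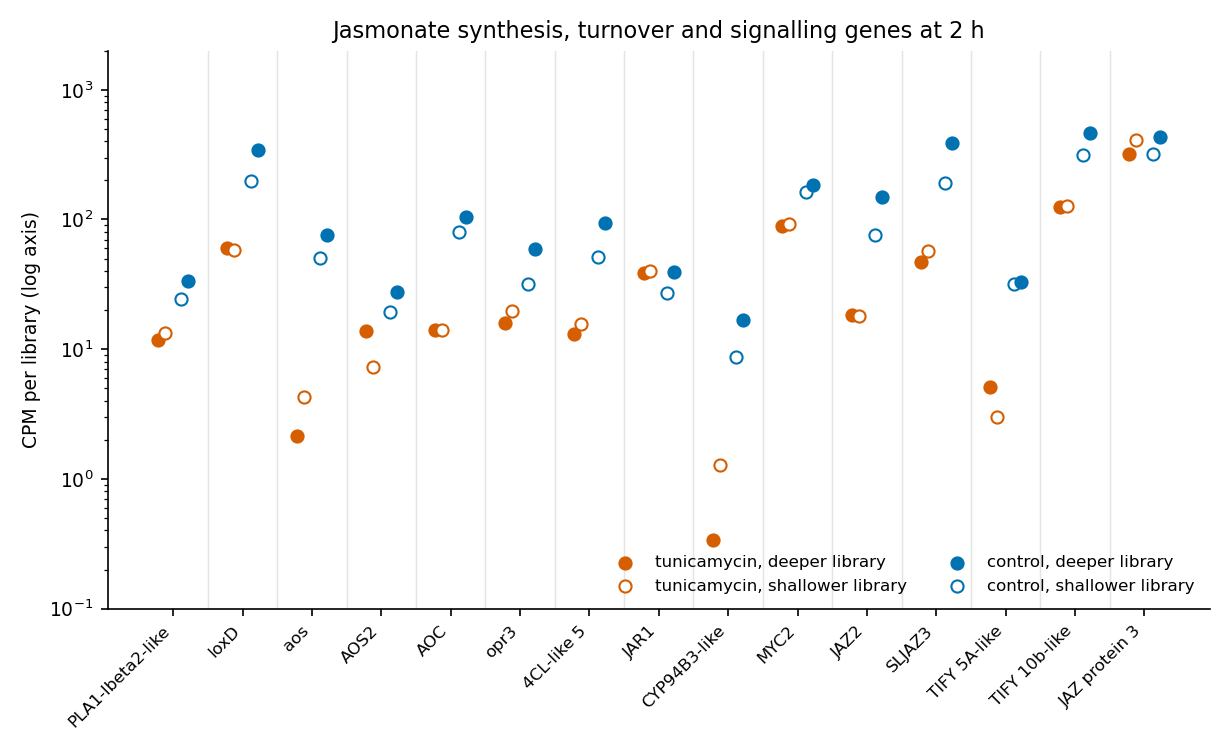
CPM in each of the 4 libraries of 2 h (log axis) for 15 genes of jasmonate synthesis, turnover and signalling, tunicamycin left of control within each gene, filled points for the deeper and open points for the shallower library. All but JAR1 and JAZ protein 3 have both tunicamycin libraries below both control libraries, and the gap is widest for aos, at 2.15 and 4.26 CPM in tunicamycin leaves, against 50.8 and 76.1 CPM in control leaves.

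Besides the 4 jasmonate genes and the 4-coumarate--CoA ligase-like gene, 6 genes fell. LOC101261097, described as the S-type anion channel SLAH2, which in Arabidopsis carries nitrate, had 6.28 and 10.6 CPM in tunicamycin leaves, against 52.9 and 70.9 CPM in control leaves (log2 -2.92 ± 0.46, adjusted p = 0.0395). LOC101261402, a UDP-glucose 6-dehydrogenase that makes UDP-glucuronate for wall polysaccharides, had 4.19 and 4.26 CPM in tunicamycin leaves, against 25.4 and 33.9 CPM in control leaves (log2 -2.82 ± 0.41, adjusted p = 0.0364). LOC101253022, polyamine oxidase 1, an enzyme that breaks down polyamines and releases hydrogen peroxide, had 11.01 and 18.3 CPM in tunicamycin leaves, against 61.6 and 125 CPM in control leaves (log2 -2.70 ± 0.43, adjusted p = 0.0395). In none of these did a tunicamycin library reach a control library, and the lowest ratio between neighbouring libraries was that of the polyamine oxidase. LOC101246157, GRAVITROPIC IN THE LIGHT 1, needed in Arabidopsis for light to alter gravitropic growth, had 6.51 and 3.41 CPM in tunicamycin leaves, against 40.2 and 39.2 CPM in control leaves (log2 -2.93 ± 0.38, adjusted p = 0.0259). LOC101246341, described by the name of an insect esterase, had 12.1 and 7.87 CPM in tunicamycin leaves, against 42.4 and 80.4 CPM in control leaves (log2 -2.60 ± 0.41, adjusted p = 0.0395). LOC101245413, described only as an uncharacterized protein, had 14.9 and 24.3 CPM in tunicamycin leaves, against 94.5 and 82.8 CPM in control leaves (log2 -2.20 ± 0.34, adjusted p = 0.0395), and it is named, outside the rule, to complete the 11. Tunicamycin and control libraries were apart in these 3 genes as well.

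Only LOC101260261 rose, a wound-induced protein 1 of a family first described in wounded potato. It had 45.7 and 14.9 CPM in tunicamycin leaves, against 1.62 and 1.596 CPM in control leaves. Both tunicamycin libraries were above both controls, but they differed from each other more than the 2 control libraries did, and the control value of the shallower library rests on 6 counts. The log2 fold change was 4.26 ± 0.60 (adjusted p = 0.0364), or 4.79 in the deeper pair and 3.16 in the shallower pair. The call ended in 4 of 17 alternatives, which were limma-voom and the fits without control replicate 1, control replicate 2 or tunicamycin replicate 1 of 2 h. That of aos ended in 2 of 17, without either deeper library.

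Among described genes just short of the threshold, the lower ones included loxD and the 94B3-like gene given above and a nitrate gene. LOC101254502, NRT1/PTR FAMILY 6.3, the nitrate transporter and sensor of Arabidopsis, had 8.32 and 7.45 CPM in tunicamycin leaves, against 33.5 and 43.7 CPM in control leaves (log2 -2.29 ± 0.40, adjusted p = 0.0819). DGK1, a diacylglycerol kinase, which makes the lipid signal phosphatidic acid, had 16.1 and 14.9 CPM in tunicamycin leaves, against 55.1 and 56.1 CPM in control leaves (log2 -1.84 ± 0.34, adjusted p = 0.0936). Tunicamycin and control libraries were far apart in both. LOC101251286, named after the maize squamosa-box factor teosinte glume architecture 1, stood at log2 -1.76 ± 0.32 (adjusted p = 0.0936), and LOC101251208, a probable methyltransferase, at -1.91 ± 0.34 (adjusted p = 0.0926). Across the 103 genes of nitrogen uptake and amino acid metabolism, 38 (36.9%) were lower without overlap and 14 (13.6%) higher. Over all genes tested, these shares were 20.5% and 18.6%. Of all 20282 genes, 912 were lower and 653 higher at an unadjusted p under 0.05, and DESeq2 called 150 lower and 72 higher. None of the 103 genes was called, and their median was -0.28. An unadjusted p under 0.05 was found for 17 of them on the lower side and 3 on the higher, and DESeq2 called 3, all lower. One of them, LOC101259235, glutamate decarboxylase 4, whose enzyme makes GABA, had 5.83 and 4.26 CPM in tunicamycin leaves, against 23.8 and 35.8 CPM in control leaves (log2 -2.54 ± 0.48, adjusted p = 0.0936).

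The higher genes nearest to the threshold were of other kinds. LOC101260130, EXORDIUM-like, of a family of extracellular proteins tied to brassinosteroid growth in Arabidopsis, had 95.6 and 66.4 CPM in tunicamycin leaves, against 21.1 and 18.3 CPM in control leaves (log2 2.05 ± 0.38, adjusted p = 0.0936). LOC101262152, described as RMA1H1, a RING ubiquitin ligase that sits in the ER membrane in pepper, had 269 and 192 CPM in tunicamycin leaves, against 64.8 and 42.6 CPM in control leaves (log2 2.11 ± 0.41, adjusted p = 0.111). The nearest libraries of the groups were 1.56 apart on the log2 scale in this gene, an amount that did not pass. Of the stress-related C2H2 zinc finger genes, LOC101254884 (ZAT10-like) had 58.3 and 32.8 CPM in tunicamycin leaves, against 5.94 and 11.8 CPM in control leaves (log2 2.31 ± 0.46, adjusted p = 0.127). LOC101256572 (ZAT10) had 85.7 and 53.4 CPM in tunicamycin leaves, against 11.3 and 7.65 CPM in control leaves (log2 2.92 ± 0.69, adjusted p = 0.256). In Arabidopsis ZAT10 is a repressor induced by several stresses. Further genes on the higher side that did not pass were the ERF1 gene LOC606712 (log2 2.12 ± 0.50, adjusted p = 0.217), a factor between ethylene and its targets, and SNF4 (log2 2.03 ± 0.49, adjusted p = 0.225), a regulatory subunit of the energy-sensing kinase SnRK1.

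No gene of the ER lumen chaperone, disulfide isomerase, ER-associated degradation or unfolded protein response regulator lists passed at 2 h in the main edgeR fit. Neither DESeq2 nor limma-voom called any of them. BiP/grp78, an HSP70 chaperone of the ER lumen, had 44.2 and 48.5 CPM in tunicamycin leaves, against 79.1 and 75.5 CPM in control leaves (log2 -0.74 ± 0.40, adjusted p = 0.715). Calreticulin (LOC101246093), which holds glycoproteins during folding, had 336 and 397 CPM in tunicamycin leaves, against 493 and 479 CPM in control leaves (log2 -0.41 ± 0.37, adjusted p = 0.885). A second calreticulin gene, LOC101262304 (calreticulin-3-like), had 2.604 and 2.55 CPM in tunicamycin leaves, against 19.98 and 10.6 CPM in control leaves, with a wide error (log2 -2.55 ± 1.64, adjusted p = 0.807). LOC101262304 was called in 2 of 17 alternatives, and BiP/grp78 and LOC101246093 in none. These 3 genes had lower tunicamycin libraries without overlap. LOC543872, P58IPK, a co-chaperone of BiP, had 10.7 and 17.7 CPM in tunicamycin leaves, against 8.64 and 9.99 CPM in control leaves (log2 0.57 ± 0.40, adjusted p = 0.814), the opposite side. LOC101245758, bZIP60, had 125 and 169.8 CPM in tunicamycin leaves, against 132 and 149 CPM in control leaves, where the groups overlapped (counts per gene do not show its splicing). The IRE1-type gene LOC101262583 had 30.7 and 30.9 CPM in tunicamycin leaves, against 24.3 and 25.9 CPM in control leaves (log2 0.29 ± 0.43, adjusted p = 0.941). A second one, LOC101263702, had 12.9 and 13.2 CPM in tunicamycin leaves, against 10.8 and 9.35 CPM in control leaves (log2 0.38 ± 0.42, adjusted p = 0.916). Both were slightly higher without overlap. Among the 17 genes listed as regulators, those with the smallest p were of another kind, the BAG family, regulators of HSP70 chaperones. BAG regulator 3 (LOC101256235) had 5.63 and 2.13 CPM in tunicamycin leaves, against 11.6 and 17.001 CPM in control leaves (log2 -1.81 ± 0.62, adjusted p = 0.432). BAG regulator 1 (LOC101264896) had 82.6 and 81.3 CPM in tunicamycin leaves, against 113 and 177 CPM in control leaves (log2 -0.82 ± 0.34, adjusted p = 0.587). These were the 2 genes of the list with an unadjusted p under 0.05, both lower without overlap.

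By list, 6 of 11 ER lumen chaperone genes (54.5%) were lower without overlap and 2 (18.2%) higher, none called, at a median of -0.17. Over all genes tested, these shares were 20.5% lower and 18.6% higher. Of 16 disulfide isomerase and oxidoreductin genes, 8 (50%) were lower and 3 (18.8%) higher without overlap, at a median of -0.26. The isomerase gene LOC101262222 had 33.1 and 41.1 CPM in tunicamycin leaves, against 58.3 and 61.2 CPM in control leaves (log2 -0.69 ± 0.34, adjusted p = 0.664). ER-associated degradation genes lay on the other side, with 6 of 10 (60%) higher without overlap and 1 lower. LOC101243872, HRD3A, a part of the ligase complex of this degradation, had 80.9 and 115 CPM in tunicamycin leaves, against 43.8 and 74.4 CPM in control leaves (log2 0.72 ± 0.35, adjusted p = 0.662). LOC101266615, the ubiquitin-conjugating enzyme E2 32, which in Arabidopsis takes part in this degradation, had 95.8 and 73.6 CPM in tunicamycin leaves, against 47.8 and 59.2 CPM in control leaves (log2 0.66 ± 0.41, adjusted p = 0.768). Their median was 0.28, at 0.08 in the deeper pair and 0.45 in the shallower pair. None of the genes of these 3 lists had an unadjusted p under 0.05 in edgeR.

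The step that tunicamycin blocks was also read. LOC101256171, the enzyme that transfers N-acetylglucosamine phosphate to dolichol, had 40.9 and 46.4 CPM in tunicamycin leaves, against 52.9 and 54.5 CPM in control leaves (log2 -0.30 ± 0.32, adjusted p = 0.911). Subunits of the oligosaccharyltransferase, which moves the finished glycan to protein, included LOC101252001, with 32.3 and 40.7 CPM in tunicamycin leaves, against 52.7 and 61.8 CPM in control leaves (log2 -0.66 ± 0.32, adjusted p = 0.668), and LOC101259924, with 45.4 and 48.1 CPM in tunicamycin leaves, against 69.7 and 69.4 CPM in control leaves (log2 -0.57 ± 0.31, adjusted p = 0.718). Both lay below the controls without overlap. Of 35 genes of this pathway 12 (34.3%) were lower without overlap and 3 (8.57%) higher, beside 20.5% and 18.6% of all genes tested. None was called (2 had an unadjusted p under 0.05, both lower, and DESeq2 called none), and the list's median was -0.03.

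Heat shock, autophagy, proteasome and ubiquitin ligase genes had no called member in edgeR, and most of these lists had more genes on the higher side. Their members are not confined to the cytosol. Of 77 heat shock protein and factor genes, 30 (39%) were higher without overlap and 6 (7.79%) lower, beside 18.6% and 20.5% of all genes tested. LOC101255240, an HSP70, had 33.9 and 62.4 CPM in tunicamycin leaves, against 14.6 and 12.6 CPM in control leaves (log2 1.82 ± 0.43, adjusted p = 0.215). HSP21, a small chloroplast chaperone, had 82.3 and 113 CPM in tunicamycin leaves, against 49.96 and 14.2 CPM in control leaves (log2 1.64 ± 0.58, adjusted p = 0.479). The small heat shock gene LOC104644406 was an exception, with 0.679 and 2.98 CPM in tunicamycin leaves, against 8.64 and 8.45 CPM in control leaves (log2 -2.41 ± 0.79, adjusted p = 0.411). In this list 11 genes had an unadjusted p under 0.05, 9 higher and 2 lower, and DESeq2 called 4, all higher. Among all 20282 genes tested, these numbers were 653 higher and 912 lower, and 72 higher and 150 lower in DESeq2. Autophagy genes, whose proteins enclose and carry cell parts to the vacuole, numbered 35, of which 18 (51.4%) were higher without overlap and 2 lower, at a median of 0.49. LOC101259351, autophagy-related protein 18f, had 37.2 and 44.1 CPM in tunicamycin leaves, against 12.96 and 15.7 CPM in control leaves (log2 1.49 ± 0.45, adjusted p = 0.353). LOC101244264, ATG13, a subunit of the kinase that starts the process, had 22.8 and 13.2 CPM in tunicamycin leaves, against 8.64 and 9.71 CPM in control leaves (log2 0.98 ± 0.41, adjusted p = 0.585). Proteasome subunits lay the other way: 41 of 45 were below zero and 18 (40%) lower without overlap, at a median of -0.22. Of 319 U-box and RING ligases, 97 (30.4%) were higher without overlap and 49 lower.

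Receptor-like kinase, wall, class III peroxidase and phenylpropanoid genes each had a share on the lower side above the 20.5% of all genes, and genes of lipid metabolism and cuticle did not, at 18.3%. Of 365 receptor-like kinase and receptor protein genes, 113 (31%) were lower without overlap, 48 higher and none called, at a median of -0.23. At an unadjusted p under 0.05 were 35 on the lower side and 5 on the higher, and DESeq2 called 7, all lower. Among all 20282 genes tested, these numbers were 912 lower and 653 higher, and 150 lower and 72 higher in DESeq2. The leucine-rich repeat kinase LOC101266317 had 12.6 and 11.5 CPM in tunicamycin leaves, against 27.5 and 41.2 CPM in control leaves (log2 -1.52 ± 0.34, adjusted p = 0.188). Among 213 wall genes 1 passed, the UDP-glucose 6-dehydrogenase, and 81 (38%) were lower and 23 higher without overlap, at a median of -0.48. Class III peroxidases, which use hydrogen peroxide to cross-link wall polymers, had 18 of 42 genes (42.9%) lower and 6 higher without overlap, at a median of -0.89. The gene LOC101250523, peroxidase 3, had 3.99 and 2.55 CPM in tunicamycin leaves, against 20.5 and 32.4 CPM in control leaves (log2 -2.97 ± 0.71, adjusted p = 0.226). Of 100 genes of phenylpropanoid and flavonoid synthesis, 35 (35%) were lower and 10 higher without overlap, and the list's called gene is the same 4-coumarate--CoA ligase-like 5 named above. Markers of other leaf cells had the following values, beside 20.5% lower and 18.6% higher without overlap among all genes tested. Of 18 phloem markers 9 were lower and 4 higher without overlap, with sums of 374 and 409 CPM in tunicamycin leaves, against 489.9 and 714 CPM in control leaves. Of 31 epidermis markers 3 were lower and 13 higher without overlap, with sums of 749 and 600.4 CPM in tunicamycin leaves, against 519 and 636 CPM in control leaves. The 13 include LOC101252875, a tie at the nearest libraries, with 33 and 0 counts in tunicamycin leaves, against 0 and 0 in control leaves. Of 9 xylem markers 3 were lower and 1 higher without overlap, with sums of 40.5 and 12.8 CPM in tunicamycin leaves, against 21.6 and 38.5 CPM in control leaves. The phloem sums were lower in both tunicamycin libraries, while the epidermis and xylem sums overlapped. The part of these markers in the lists' values was not tested.

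Photosynthesis and clock genes were below the background share on the lower side, and clock genes were above the background share on the higher side. Of 56 genes of the photosystems, light harvesting and Rubisco, 13 (23.2%) were higher and 0 lower without overlap, beside 18.6% and 20.5% of all genes. In this list 45 of 56 genes were above zero and none was called (1 had an unadjusted p under 0.05, and DESeq2 called none), at a median of 0.23. In the clock list, 10 of 20 genes (50%) were higher without overlap and 2 (10%) lower, at a median of 0.68, none called (2 had an unadjusted p under 0.05, both higher, and DESeq2 called none). LOC101255972, REVEILLE 7, a morning-phased MYB factor in Arabidopsis, had 58.7 and 80.03 CPM in tunicamycin leaves, against 40.5 and 22.6 CPM in control leaves (log2 1.15 ± 0.36, adjusted p = 0.383). LOC101267430, EARLY FLOWERING 3, of the evening complex, had 41.9 and 58.7 CPM in tunicamycin leaves, against 25.9 and 26.9 CPM in control leaves (log2 0.92 ± 0.32, adjusted p = 0.447). The hour of the day at sampling is not given in the sources used here, so whether the groups were harvested at the same hour was not tested. Cytosolic ribosomal protein genes differed between the 2 pairs of libraries: 64 of 207 (30.9%) were lower and 1 higher without overlap, with a median of -0.16 that was 0.08 in the deeper pair and -0.45 in the shallower pair.

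**Figure D3:**
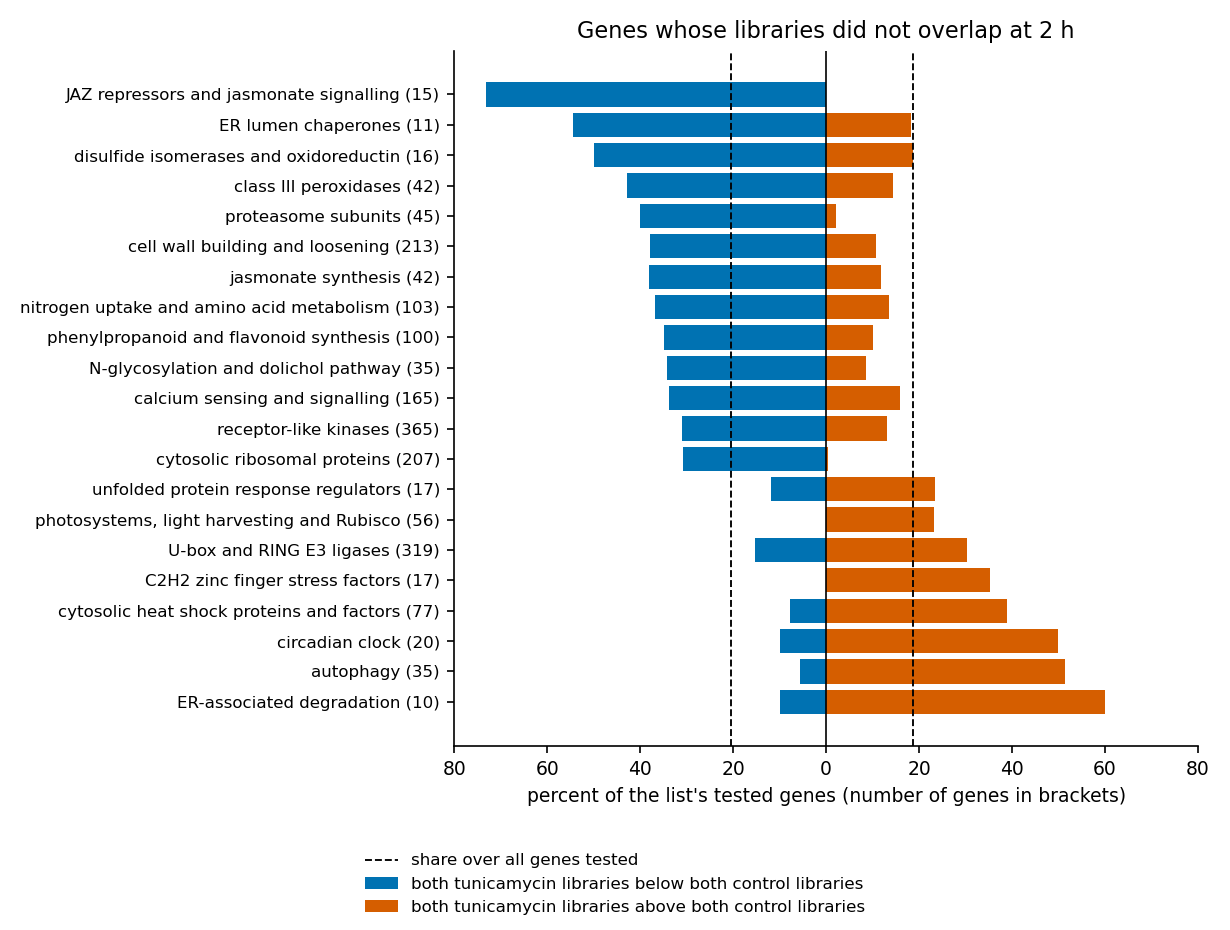
Percent of the tested genes of 21 lists with both tunicamycin libraries below both control libraries (left bars) or above both (right bars) at 2 h, with dashed lines at 20.5% and 18.6%, the shares over all genes tested. JAZ and jasmonate signalling genes reach 73.3% on the lower side, and autophagy and ER-associated degradation genes reach 51.4% and 60% on the higher side. Genes whose nearest libraries tied at 0 counts may be included.

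Each group held 1 deep and 1 shallow library, so the comparison could be read from 2 pairs that share no library. Over the 16011 genes whose mean log2 CPM reached 1, the difference between the deeper libraries and that between the shallower libraries had Pearson's r of 0.238 and Spearman's rho of 0.184 across genes, which are not independent replicates, and the same sign in 54.6% of genes. The 12 called genes had the same sign in both pairs, but they were called from these same libraries, so their agreement is no separate evidence. For aos this log2 difference stood at -5.11 in the deeper pair and -3.56 in the shallower pair, for AOC at -2.90 in the deeper pair and -2.50 in the shallower pair. SLJAZ3 gave -3.06 in the deeper pair and -1.75 in the shallower pair, and polyamine oxidase 1 (LOC101253022) -3.50 in the deeper pair and -1.75 in the shallower pair. GRAVITROPIC IN THE LIGHT 1 (LOC101246157) differed more in the shallower pair, at -2.58 in the deeper pair and -3.54 in the shallower pair.

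**Figure D4:**
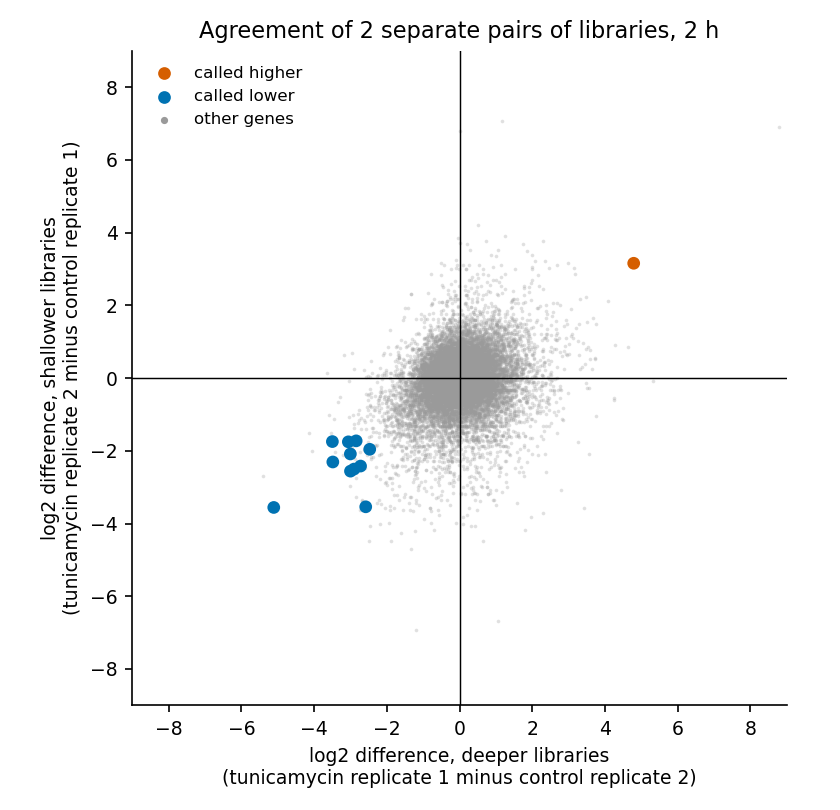
Log2 difference of tunicamycin minus control at 2 h between the shallower libraries (vertical axis) against that between the deeper libraries (horizontal axis), 1 point per gene whose mean log2 CPM reached 1. The cloud of grey points is nearly round (Pearson's r 0.238). The 11 genes that fell lie in the lower left and wound-induced protein 1 in the upper right. These genes were called from the same libraries, so their place is no separate evidence.

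At 6 h, in other libraries, all 12 genes called at 2 h kept the sign of their log2 fold change. Of the 12, 7 were called there as well, where 54 of all 20282 genes tested were called. Both times shared the same estimate of the spread, so their calls are not independent. JAZ2 had 8.98 and 7.09 CPM in tunicamycin leaves, against 53.5 and 70.8 CPM in control leaves at 6 h (log2 -2.94 ± 0.38, adjusted p = 0.0104). Polyamine oxidase 1 (LOC101253022) had 6.63 and 8.297 CPM in tunicamycin leaves, against 44.9 and 71.99 CPM in control leaves (log2 -2.98 ± 0.43, adjusted p = 0.0143). The 4 libraries kept the same order by group in both genes. AOC was the clearest contrast, with 19.4 and 41.6 CPM in tunicamycin leaves, against 69.7 and 37.6 CPM in control leaves at 6 h, where the groups overlapped (log2 -0.82 ± 0.40, adjusted p = 1). Wound-induced protein 1 (LOC101260261) had 14.98 and 30.2 CPM in tunicamycin leaves, against 4.102 and 4.36 CPM in control leaves at 6 h, without overlap (log2 2.41 ± 0.51, adjusted p = 0.0754). The difference of the tunicamycin effect between 6 h and 2 h was tested as an interaction in edgeR. No gene passed (495 had an unadjusted p under 0.05), and none of the 12 passed in DESeq2 or limma-voom. The largest differences among the 12 were those of AOC, at 1.90 ± 0.57 (log2, 6 h minus 2 h), and of wound-induced protein 1 (LOC101260261), at -1.85 ± 0.74, neither passing after adjustment in edgeR.

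**Figure D5:**
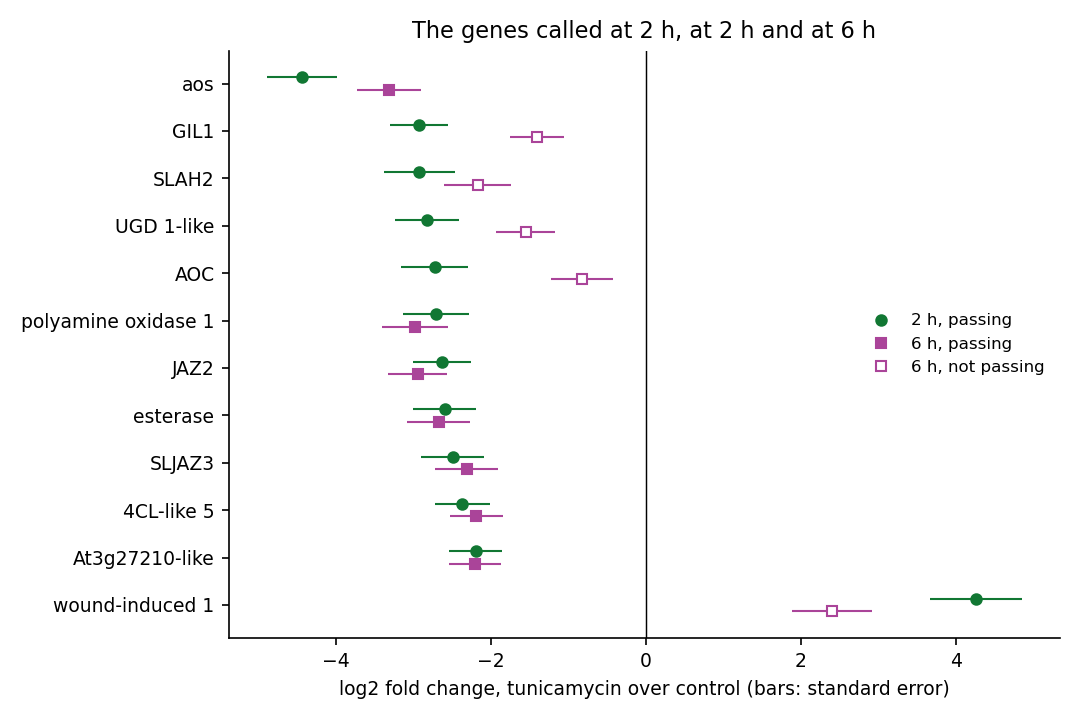
Log2 fold change of tunicamycin over control leaves (horizontal axis) at 2 h (circles) and 6 h (squares, filled where called at 6 h) for the 12 genes called at 2 h. Bars are standard errors derived from edgeR's F statistic. Each gene has the same sign at both times, and AOC is nearest to zero at 6 h, at -0.82.

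The authors' deposited table of this comparison called more. It lists 817 of 45845 transcripts at a false discovery rate under 0.05, 462 lower and 355 higher in tunicamycin leaves. Of the 20282 genes tested here, with 1 transcript each, 669 pass there, 362 lower and 307 higher. The authors' test is not named in the sources used here. All 12 genes called above are among them in the authors' deposited table. Its fold changes are close to those given here, with a median absolute difference of 0.0182 on the log2 scale over the genes tested. RMA1H1 (LOC101262152) stands in the authors' deposited table at a log2 fold change of 2.13 with a false discovery rate of 1.63e-06, against an adjusted p of 0.111 in edgeR with the spread of all 8 libraries. Of the 11 ER lumen chaperone genes, 1 passes in the authors' deposited table, calreticulin-3-like (LOC101262304), at -2.51 with a rate of 0.000272, and BiP/grp78 does not, at -0.73 with a rate of 0.451. Of the 17 genes listed as regulators, 1 passes in the authors' deposited table, the BAG regulator 3 gene (LOC101256235), at -1.76 with a rate of 0.0167. None of the disulfide isomerase, ER-associated degradation and N-glycosylation genes tested passes in the authors' deposited table.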

How the data were processed

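RNA from tomato leaves was sequenced in 8 libraries, 2 for each of tunicamycin and control at 2 h and at 6 h. Per the labels, total RNA was extracted with Trizol and libraries were made with a directional kit. Per the submitters' processing notes Trimmomatic 0.40 was used. The sources used here do not give the aligner, counting program, strand setting, genome build or annotation, so no coordinates or sequences are given, and reads of overlapping or near-identical genes cannot be told apart.

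The authors deposited raw counts of reads for 45845 transcripts. They also deposited tables of their own comparisons, with the fold change and average abundance on the log2 scale (log2 CPM), the F statistic as a score, and a p-value with its false discovery rate, per the file headers. For 2 h, 1 deposited fold-change cell held no readable number and was not used.

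One transcript was taken for each gene symbol, that with the highest total count over the 8 libraries, which gave 29081 genes. The symbol came from the description, and the symbol column differed from it for 457 transcripts. Counts were analysed in R 4.3.3 with edgeR 4.0.16. filterByExpr (minimum count 10, minimum total count 15) kept 20282 genes and left out 8799. After TMM scaling, all 8 libraries entered 1 robust quasi-likelihood fit with a mean for each of the 4 groups, and tunicamycin 2 h was tested against control 2 h, two-sided, with Benjamini-Hochberg adjustment over all genes. Errors of log2 fold changes are standard errors derived from the test, as the absolute log2 fold change over the square root of edgeR's F statistic. Log2 differences between single libraries and mean log2 CPM carry a prior count of 2. The procedure was tested on simulated data. Alternatives included limma-voom (limma 3.58.1), DESeq2 1.42.0, other scalings and filters, a depth term, thinned counts and each library left out in turn.

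Named genes are, in each direction, up to 15 described genes whose mean log2 CPM reached 1, called genes first by size and then those with the smallest p and no overlap between groups, and the 2 members of each of 56 lists with the smallest p. From these, and from members that complete a pathway, a selection is given. Genes outside the rule were chosen with their values known. The members and lists were chosen with earlier results of these data known, and some list patterns were corrected after the matched names were seen, so the lists are no independent evidence. Ribosomal RNA took between 0.145% and 0.553% of the counts of the 2 h libraries.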

Additional observations from a re-analysis of the deposited data

How the results depend on the processing

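The number of genes called at 2 h, 12 as reported, depended on the processing. It was 84 when the 4 libraries of 2 h were fitted alone, 491 with no low-count filter, 28 with a depth term, 4 after thinning to the shallowest library, 222 in DESeq2 and 1 in limma-voom. With each library left out in turn it lay between 0 and 145, the highest without control 6 h replicate 1. With all transcripts it was 11, and with median-of-ratios size factors 11. The call of aos ended in 2 of 17 alternatives, that of wound-induced protein 1 (LOC101260261) in 4 and that of SLJAZ3 in 9. Between the same replicate numbers of tunicamycin and control at 2 h, deviations from the group means had a correlation of -0.0866. The same number meant opposite depth there, so a pairing by number cannot be told apart from depth. A fit with the replicate block called 7 genes, all among the 12. The log2 fold changes of LOC100191114 and LOC101245758, near zero as reported (-0.06 and 0.07), changed sign in some settings: to 0.019 in limma-voom and to values between -0.26 and 0.18 with 1 library left out for LOC100191114, and to values between -0.11 and 0.27 with 1 library left out for LOC101245758. Of the 56 gene lists, 28 kept the side of their median log2 fold change in all edgeR alternatives, among them the 2 jasmonate lists, ER lumen chaperones, disulfide isomerases, ER-associated degradation, heat shock proteins, autophagy, proteasome, receptor-like kinases, wall genes and the clock. Medians changed sign in other lists whose values are given here. Without tunicamycin 2 h replicate 1 these were wound proteins, C2H2 zinc finger factors and NAC. Without tunicamycin 2 h replicate 2 they were WRKY, ribosomal proteins, and lipid metabolism and cuticle. Without control 2 h replicate 1 they were WRKY, NAC and the fruit ripening marker. Without control 2 h replicate 2 they were N-glycosylation, unfolded protein response regulators, and pollen and anther markers. With all transcripts, NAC and the unfolded protein response regulators changed sign. After thinning, N-glycosylation and the same regulators did. None of the 12 genes passed the test of a difference between 6 h and 2 h under any alternative in which it could be fitted, which excludes the 4 libraries of 2 h alone.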

Other observations

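Hormone genes outside the jasmonate pathway did not pass at 2 h in edgeR. The gibberellin 2-oxidases GA2ox3 and GA2ox5, which inactivate gibberellins, lay on opposite sides. GA2ox3 had 7.84 and 6.39 CPM in tunicamycin leaves, against 27.8 and 36.5 CPM in control leaves (log2 -2.17 ± 0.41, adjusted p = 0.0936), while GA2ox5 had 13.8 and 4.26 CPM in tunicamycin leaves, against 0.5401 and 1.49 CPM in control leaves (log2 3.002 ± 0.82, adjusted p = 0.28). The groups did not overlap in either gene. GA2ox2 and GA2ox4 were also above zero (log2 2.32 and 1.80), neither passing. Of 33 gibberellin genes 11 (33.3%) were lower and 6 (18.2%) higher without overlap. LOC101246688, described as calcium-transporting ATPase 2, of a family of pumps that clear calcium from the cytosol, was lower without overlap and had 101 and 147 CPM in tunicamycin leaves, against 354 and 753 CPM in control leaves (log2 -2.16 ± 0.44, adjusted p = 0.136). Of 165 calcium genes 56 (33.9%) were lower and 26 (15.8%) higher without overlap, beside 20.5% and 18.6% of all genes tested. None of the 165 was called in edgeR, and their median was -0.20. An unadjusted p under 0.05 was found for 21 of them on the lower side and 3 on the higher, and DESeq2 called 7, all lower. Among all 20282 genes tested, these numbers were 912 lower and 653 higher, and 150 lower and 72 higher in DESeq2.

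Arginine decarboxylase (ADC), which starts polyamine synthesis, had 209 and 321 CPM in tunicamycin leaves, against 714 and 832 CPM in control leaves (log2 -1.55 ± 0.39, adjusted p = 0.246), beside the called polyamine oxidase 1. Of 23 genes of polyamine metabolism 9 (39.1%) were lower and 2 (8.7%) higher without overlap, beside 20.5% and 18.6% of all genes. The metacaspase-1-like gene LOC101247995, of a family of plant proteases, had 9.82 and 11.5 CPM in tunicamycin leaves, against 25.4 and 38.3 CPM in control leaves (log2 -1.60 ± 0.36, adjusted p = 0.191). WRKY and NAC transcription factors had no called member, with medians of 0.30 in the deeper pair and -0.54 in the shallower pair for WRKY and 0.21 in the deeper pair and -0.07 in the shallower pair for NAC, each of opposite sign in the 2 pairs.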
